A study of Mus musculus with 8 samples.

Results

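The hepatocyte identity transcription factors are the DNA-binding proteins that keep a liver cell a liver cell. Members were 9 genes, Hnf4a, Cebpa, Cebpb, Foxa1, Foxa2, Foxa3, Onecut1, Prox1 and Nr5a2, of 34836 gene names on the array, and they were found by their symbol among the non-control spots of the scanner files. They were read by 12 probes of 60 bases. Liver RNA came from 4 NZO mice (NZO/HiBomDife, an inbred strain that becomes obese and diabetic) and 4 B6 mice (C57BL/6, lean and resistant to diabetes), all male, 6 weeks old and fed a diet with 45% fat. Each liver was hybridised on its own one-colour Agilent array, and a mouse is named here by its strain and its number, such as B6 010. Both groups are inbred strains that differ across the whole genome, so no difference between them can be assigned to a single locus.

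HNF4A, a nuclear receptor, and the C/EBP, FOXA and ONECUT families bind the control regions of hepatocyte genes together, and they also bind each other's genes, so that the set behaves as a network in which each factor helps to keep the others on. FOXA proteins open chromatin in the early foregut, ONECUT1 (also called HNF6) and PROX1 act when hepatocytes and bile duct cells separate, and NR5A2 (LRH-1) controls bile acid and cholesterol genes. In adult liver Onecut1 is also a target of growth hormone.

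Onecut1 was the factor whose level varied most between mice, and its sequences are shown for that reason. The array carries a pair of Onecut1 probes 26481 bases apart, probe 1 at chr9:74737402-74737461 and probe 2 at chr9:74710921-74710980 (mouse build mm9, plus strand, as the files give them). Probe 2 is shown, and 1 of its 3 reading frames holds no stop codon. Its place within the transcript was not looked up, since no annotation of mm9 was used here. Its 60 bases, all in lower case because no base is singled out, were read from the scanner files.
Onecut1 probe 2: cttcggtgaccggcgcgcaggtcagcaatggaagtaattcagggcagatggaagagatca

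The ONECUT motif was searched as ATTGATT or ATTGACT on both strands of the 250 bases before each annotated start, in the RefSeq table of mouse build GRCm38.p6, in which all 9 genes matched with 14 start sites. The motif was present before 3 of these 14 starts and before 4.16% of the 32851 starts in the table. The 3 starts belonged to Foxa2 (2 of its 3 starts) and Hnf4a (1 of its 2 starts), and they are printed below. The other Hnf4a start, with its window at chr2:163546905-163547154 (plus strand), held no match. Which starts are used in these livers was not examined. Capitals mark the motif, which ended 207 and 151 bases before the Foxa2 starts and 54 bases before the Hnf4a start. The windows lie at chr2:148046970-148047219 (minus strand), chr2:163506607-163506856 (plus strand) and, for the shorter stretch, within chr2:148045465-148045714 (minus strand).
Foxa2, distal start: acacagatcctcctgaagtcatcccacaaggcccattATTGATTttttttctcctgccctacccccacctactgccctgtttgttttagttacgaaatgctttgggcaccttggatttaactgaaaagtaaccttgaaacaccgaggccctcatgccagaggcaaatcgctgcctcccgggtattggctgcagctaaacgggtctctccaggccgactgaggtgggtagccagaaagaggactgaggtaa
Hnf4a, distal start: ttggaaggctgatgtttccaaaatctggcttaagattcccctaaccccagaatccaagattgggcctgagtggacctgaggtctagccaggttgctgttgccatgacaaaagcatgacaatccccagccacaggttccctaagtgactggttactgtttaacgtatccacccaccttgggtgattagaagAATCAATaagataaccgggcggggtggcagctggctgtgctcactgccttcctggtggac
Foxa2, proximal start: gtgatcaaatATTGACTtgcggcgcct

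A FOXA motif, TGTTTAC or TGTTTGC on either strand, was present before 2 of the 14 starts, those of Foxa1 and Prox1, and before 7.29% of all starts. A match describes the letters in the window and was not tested for binding, and windows without a match say nothing of a factor.

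By the scanner's own flag every one of the 12 probes exceeded background clearly in all 8 livers, and no spot was saturated. The 75th percentile of the processed signal ranged from 118.7 to 158.8 units between arrays, and 50.4% to 60.1% of spots were well above background. Levels are given as log2 of the processed signal minus the 75th percentile of the same array, so that a level of 0 equals that percentile and 1 unit is a doubling. Levels were compared between mice at the same probe and not between probes, which differ in how they hybridise. In whole liver, fewer cells of a type and less RNA per cell cannot be told apart.

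In the comparison of the strains, which asks whether the obese strain carries a different level of these regulators, 0 of the 12 probes were called by limma at an adjusted p of 0.05, in either direction. Over the 27642 probes tested, 6.78% were called higher in NZO and 7.44% lower. At an unadjusted p of 0.05 limma called 0 of the 12 and 27.8% of all probes. The methods' t-test called 1 of the 12, Cebpa, and 24.8% of all probes before adjustment, and 0 of the 12 and 9.03% of all probes after Benjamini-Hochberg adjustment. With limma's p, the thresholds of the methods (0.05 for the unadjusted p and 0.7 for the size of the log2 fold change) were passed by 0 of the 12 probes and by 12.2% of all probes tested. The groups did not overlap at 1 of the 12 probes, Cebpa, where every NZO mouse lay below every B6 mouse. That pattern was found at 10.7% of all probes, and the reverse, every NZO mouse above every B6 mouse, at 11.3% of all probes and at 0 of the 12.

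**Figure D1:**
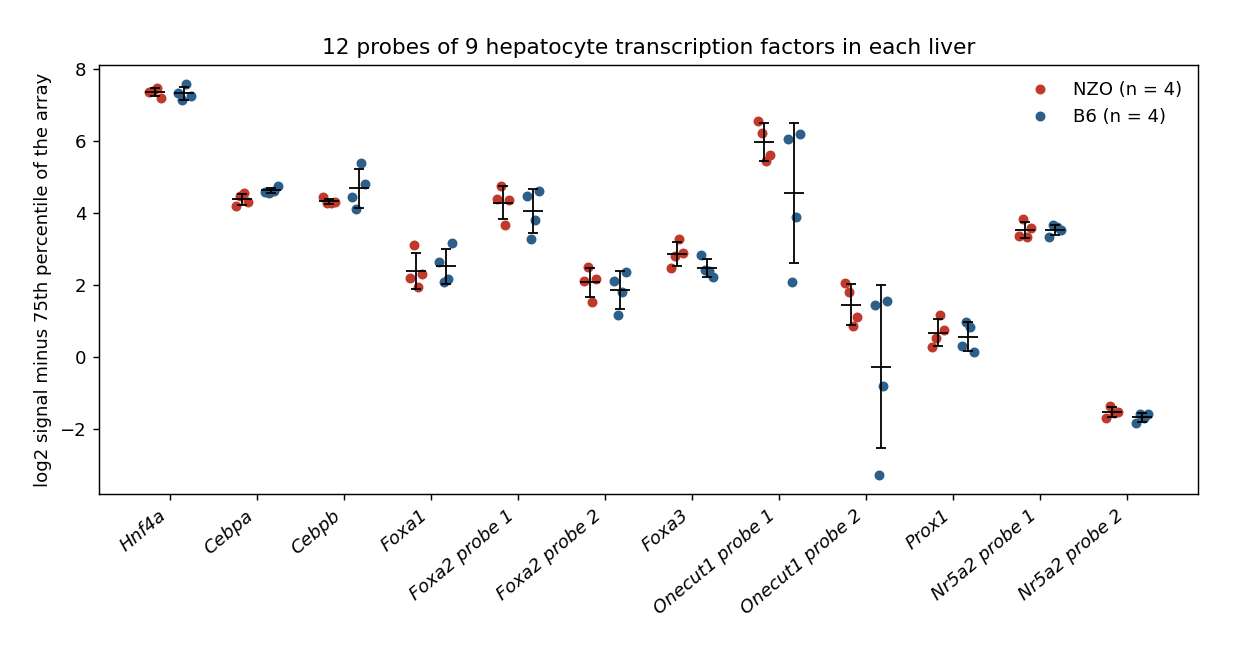
Level of each probe in each liver (vertical axis, log2 signal minus the 75th percentile of the array) for NZO (red) and B6 (blue), with the mean and SD of 4 mice in black. The strain means differed by under 1 unit at every probe but those of Onecut1, which spread over 4.09 units at probe 1 within B6.

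Hnf4a, the nuclear receptor at the centre of the network, had one of the smallest spreads. Its level was 7.34, 7.38, 7.46 and 7.19 in NZO 007, 003, 009 and 011, and 7.32, 7.14, 7.56 and 7.25 in B6 011, 010, 015 and 009. The highest and the lowest mouse were both B6, and the groups overlapped. NZO livers averaged 7.34 ± 0.11 (SD, n = 4) and B6 livers 7.32 ± 0.18 (SD, n = 4). The log2 fold change, always NZO minus B6, was 0.03 (SE 0.12, limma adjusted p = 0.912). The 95% interval of the ratio ran from 0.843-fold to 1.23-fold. The sign of this small difference depended on the scaling. The probe lies at chr2:163398548-163398607 (mm9).

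The genes whose level most resembled that of Hnf4a over the 8 arrays, among named genes above background on all of them, were Mterf2 (Pearson r = 0.937), Tmco4 (0.928) and Aig1 (0.917). Each varied by less than 1 unit over the 8 mice, by 0.80, 0.76 and 0.80 on the log2 scale, as did Hnf4a. They are the highest among all such probes and are given as a description.

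Cebpa, which holds hepatocytes in a resting, differentiated state, was lower in every NZO mouse than in every B6 mouse, by a small amount. Its level was 4.19, 4.46, 4.54 and 4.31 in NZO 007, 003, 009 and 011, and 4.59, 4.56, 4.59 and 4.74 in B6 011, 010, 015 and 009. The 4 B6 values lay within 0.18 of each other, and the gap between the closest mice of the 2 strains was smaller than the spread within NZO. The log2 fold change was -0.24 (SE 0.11, limma adjusted p = 0.186), and the 95% interval of the ratio was 0.712-fold to 1.00-fold. The probe lies at chr7:35906517-35906576 (mm9). Without NZO 007 the log2 fold change was -0.18, and it was -0.11 within the only slide that held both strains.

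Cebpb, which is induced by cytokines, fasting and cell division, was almost the same in the 4 NZO livers and spread in B6. Its level was 4.43, 4.26, 4.28 and 4.30 in NZO 007, 003, 009 and 011, and 4.43, 4.10, 5.39 and 4.79 in B6 011, 010, 015 and 009. The SD was 0.08 in NZO and 0.55 in B6, and 8.74% of all probes tested had a B6 SD as large. The highest value, in B6 015, was 2.45-fold the lowest, in B6 010, and both were B6. The log2 fold change was -0.36 (SE 0.25, limma adjusted p = 0.399, 95% interval of the ratio 0.524-fold to 1.16-fold), and it was -0.12 without B6 015 and -0.55 without B6 010. The probe lies at chr2:167515828-167515887 (mm9).

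None of the 3 FOXA genes, winged-helix factors that open chromatin, was called between the strains, and differences between the 3 were not tested. Foxa1 ranged from 1.93 to 3.10 in NZO and from 2.08 to 3.16 in B6, with a log2 fold change of -0.13 (SE 0.31, limma adjusted p = 0.823). It was 0.32 within scan day 1 and -0.70 within scan day 2. Foxa3, the member of the family most restricted to adult liver and gut, ranged from 2.46 to 3.26 in NZO and from 2.22 to 2.83 in B6, with a log2 fold change of 0.39 (SE 0.19, limma adjusted p = 0.241, 95% interval of the ratio 0.959-fold to 1.78-fold). The NZO mean of Foxa3 was above all B6 mice, and B6 011 was the only B6 liver above any NZO liver. Its difference was 0.58 within scan day 1 (3 NZO and 2 B6) and -0.07 within scan day 2 (1 NZO and 2 B6). Leaving out 1 mouse gave 0.25 without NZO 009, 0.52 without NZO 007 and 0.51 without B6 011.

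Foxa2, which controls fatty acid oxidation and bile acid genes in fasting, has 2 probes that overlap by 5 bases and gave the same pattern (Pearson r = 0.986 over the 8 arrays), so they are not separate evidence. At probe 1 its level was 4.39, 4.74, 3.66 and 4.35 in NZO 007, 003, 009 and 011, and 4.47, 3.28, 3.81 and 4.62 in B6 011, 010, 015 and 009. The 3 low livers were B6 010, NZO 009 and B6 015, and the other 5 lay between 4.35 and 4.74 whatever their strain. The log2 fold change was 0.24 (SE 0.34, limma adjusted p = 0.690) at probe 1 and 0.21 (SE 0.29, adjusted p = 0.681) at probe 2, and the 95% interval of the ratio at probe 1 was 0.691-fold to 2.01-fold. The difference at probe 1 was 0.70 within scan day 1 and -0.16 within scan day 2, and with slide as a fixed term it was 1.19 at probe 1 and 1.03 at probe 2 (limma adjusted p = 0.185 and 0.242). Foxa1 lies at chr12:58641764-58641823, Foxa3 at chr7:19599053-19599112 and the Foxa2 probes at chr2:147868669-147868728 and chr2:147868614-147868673 (mm9, all on the minus strand).

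**Figure D2:**
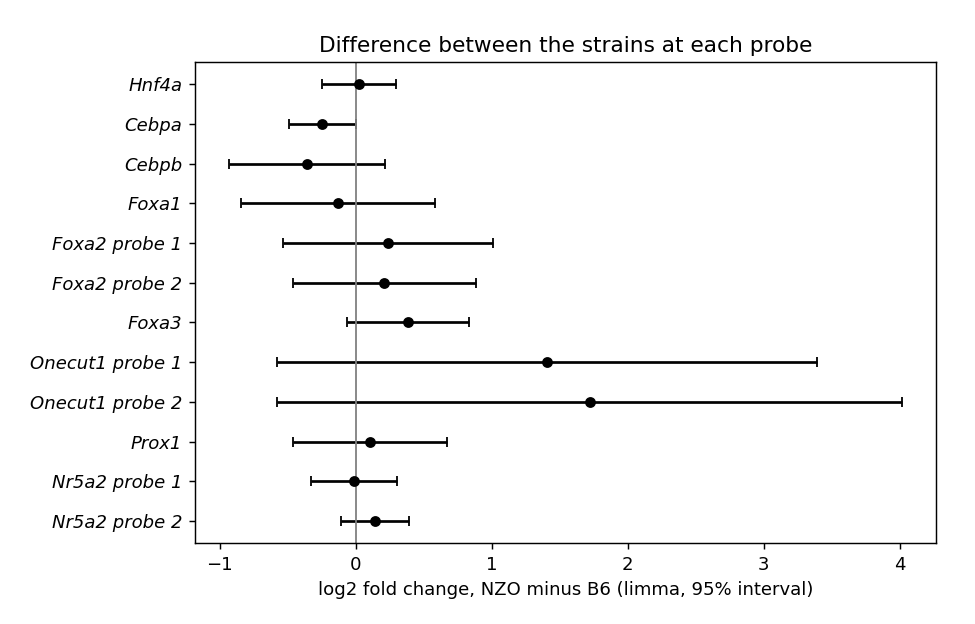
Log2 fold change of NZO against B6 at each of the 12 probes (horizontal axis), with the 95% interval from limma as the bar. Every interval reached 0 or crossed it, and those of Onecut1 were by far the widest, from -0.58 to 3.39 at probe 1.

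Onecut1, the cut-homeodomain factor HNF6, was high in all 4 NZO livers and in 2 of the 4 B6 livers. At probe 1 its level was 6.56, 6.22, 5.45 and 5.61 in NZO 007, 003, 009 and 011, and 6.04, 2.09, 3.89 and 6.19 in B6 011, 010, 015 and 009. B6 010 and B6 015 lay below every other liver, while B6 011 and B6 009 lay within the NZO range. The B6 livers thus spanned 17.1-fold at probe 1, against 2.16-fold within NZO.

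Probe 2, whose sequence is printed above, repeated this pattern. Its level was 2.04, 1.82, 0.85 and 1.103 in NZO 007, 003, 009 and 011, and 1.43, -3.26, -0.79 and 1.54 in B6 011, 010, 015 and 009. The 8 livers stood in the same order at both probes, and the Pearson r between the probes was 0.997. Within B6 the span at probe 2 was 27.9-fold, and B6 010 was still above background there. A B6 SD as large as that of Onecut1 (1.95 at probe 1 and 2.26 at probe 2) was found at 0.0977% and 0.0434% of all probes tested. The median SD over all probes tested was 0.19 in B6 and 0.23 in NZO.

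Because of this spread the strain comparison of Onecut1 has little precision. At probe 1 NZO livers averaged 5.96 ± 0.52 (SD, n = 4) and B6 livers 4.55 ± 1.95 (SD, n = 4). The difference on the log2 scale was 1.41 (SE 0.86, limma adjusted p = 0.337). The 95% interval of the ratio ran from 0.670-fold to 10.5-fold. At probe 2 the log2 fold change was 1.72 (SE 1.00, limma adjusted p = 0.310). At this dimmer probe the log2 fold change depended on the background handling. It was 1.03 under normexp correction, which also added an offset of 50 to each signal. It was 1.27 in the deposited table rescaled to its 75th percentile and 1.08 in that table as given, which is scaled differently as well. Without B6 010 it was 0.59 at probe 1 and 0.73 at probe 2, and without B6 009 it was 1.95 and 2.33.

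The 2 low B6 livers were scanned on day 1, on the same slide, and the 2 high B6 livers on day 2 on slides of their own. The NZO livers of day 1, one of them on that same slide (NZO 003), were high at 6.22, 5.45 and 5.61 at probe 1. The difference between the strains was 2.77 within scan day 1 (3 NZO and 2 B6), 0.45 within scan day 2 (1 NZO and 2 B6) and 3.23 within the shared slide (1 NZO and 2 B6) on the log2 scale. With scan day as a term the log2 fold change was 1.94 at probe 1 and 2.31 at probe 2 (limma adjusted p = 0.059 and 0.069, unadjusted p = 0.0096 and 0.012). Within B6, scan day and Onecut1 level cannot be told apart. Feeding state and time of death of the single mice are not given in the sources used here.

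The other factors were then set against Onecut1 over the 8 livers, 8 relations in all. As Onecut1 was made the reference after the values had been seen, the relations are described and not tested. Foxa2 came closest, with Pearson r = 0.864 and Spearman rho = 0.833. Without the 2 livers farthest from the median, B6 010 and B6 015, r was 0.695 over 6 livers, so the relation rests in part on those livers. Within scan day 1 r was 0.832 over 5 livers, and scan day 2 held too few livers for a value. Within the strains r was 0.678 over the 4 NZO livers and 0.998 over the 4 B6 livers.

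Prox1, a homeobox factor of early liver bud cells and of lymphatic vessels that represses HNF4A and NR5A2 activity, ran the other way. Its level was 0.27, 0.52, 1.16 and 0.74 in NZO 007, 003, 009 and 011, and 0.31, 0.97, 0.83 and 0.15 in B6 011, 010, 015 and 009. The 3 livers scanned on day 2, NZO 007, B6 011 and B6 009, had the 3 lowest Prox1 values, so a relation over all 8 livers is not separate from scan day. Spearman rho with Onecut1 was -0.810 and Pearson r was -0.644. Without B6 010 and B6 015 r was -0.849 over 6 livers, and within scan day 1 it was -0.418 over 5 livers. Within the strains it was -0.941 over the 4 NZO and -0.965 over the 4 B6 livers.

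Between the strains Prox1 did not differ beyond its spread, with a log2 fold change of 0.11 (SE 0.25, limma adjusted p = 0.815, 95% interval of the ratio 0.729-fold to 1.59-fold). Its probe lies at chr1:191945785-191945844 (mm9, minus strand).

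Of the other 6 relations, Foxa1 came nearest, with r = 0.504. Hnf4a had r = 0.164. Cebpa, Cebpb, Foxa3 and Nr5a2 had r of -0.279, -0.038, 0.249 and -0.326 over the 8 livers. Without B6 010 and B6 015 the r of Foxa3 was -0.788 over 6 livers, and within scan day 1 it was 0.713 over 5 livers, so its sign depended on the livers taken.

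**Figure D3:**
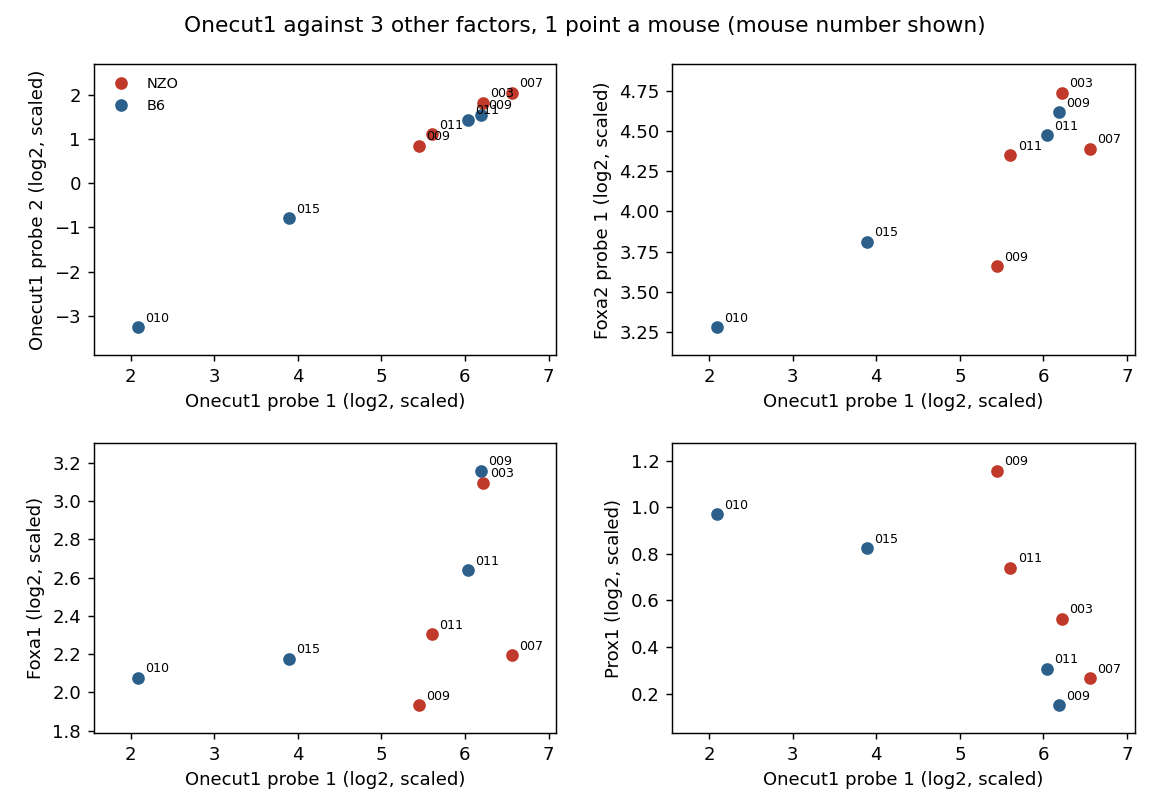
Onecut1 at probe 1 (horizontal axis, log2 scaled signal) against Onecut1 probe 2, Foxa2 probe 1, Foxa1 and Prox1 (vertical axes, log2 scaled signal), 1 point a mouse with its number, NZO in red and B6 in blue. B6 010 and B6 015 had the lowest Onecut1 at both probes and low Foxa2 (3.28 and 3.81).

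Nr5a2, the nuclear receptor LRH-1, did not differ between the strains beyond its spread, which was narrow. At probe 1 it ranged from 3.32 to 3.82 in NZO and from 3.34 to 3.65 in B6, with a log2 fold change of -0.01 (SE 0.14, limma adjusted p = 0.974, 95% interval of the ratio 0.798-fold to 1.24-fold). At probe 2, 809 bases away, the log2 fold change was 0.14 (SE 0.11, limma adjusted p = 0.451, 95% interval 0.927-fold to 1.31-fold). The probes lie at chr1:138740903-138740962 and chr1:138741712-138741771 (mm9, minus strand), and their levels correlated with r = 0.679 over the 8 arrays, less closely than the probe pairs of Onecut1 and Foxa2.

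Genes around the 9 factors were counted at the brightest probe of each gene. Of all 20095 genes tested in this way, 7.01% were called higher in NZO and 7.21% lower, 27.8% passed an unadjusted p of 0.05 in either direction, and the median log2 fold change was 0.03. Of 21 tested among 23 other liver transcription factors, 1 was called higher and 1 lower, near that background, with a median of 0.05. Atf5, a leucine zipper factor related to the C/EBP family, rose by 1.34 (SE 0.13, limma adjusted p = 0.00029), with NZO livers at 9.19 to 9.47 and B6 livers at 7.73 to 8.23. Nr1i3, the xenobiotic receptor CAR, fell by 1.01 (SE 0.16, limma adjusted p = 0.0034) and by 1.04 at its other probe.

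Among 19 tested of 20 partners and inhibitors of the factors, 1 was called higher and 1 lower, with a median of -0.03. Crebbp, the acetyltransferase CBP that serves as coactivator for most of the 9 factors, rose by 1.88 at its brighter probe (SE 0.15, limma adjusted p = 8.7e-05). At the dimmer Crebbp probe the log2 fold change was -0.26 (limma adjusted p = 0.526), so the probes of this gene disagree and its direction is uncertain. Trib1, which directs C/EBP-alpha protein to degradation, fell by 0.54 (SE 0.14, limma adjusted p = 0.041) and by 0.53 at another probe, while the dimmest probe had -0.72 (adjusted p = 0.165).

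Targets of the factors were counted in the same way. Of 19 tested among 20 genes bound by HNF4A, 4 were called higher in NZO and 0 lower, with a median of 0.25, while Hnf4a itself differed by 0.03. They were Apoa4 (1.23, limma adjusted p = 0.036), Pklr (0.96, adjusted p = 0.021), Mttp (0.64, adjusted p = 0.0098) and Apoh (0.33, adjusted p = 0.029), that is 2 apolipoproteins, liver pyruvate kinase and the transfer protein that loads lipid onto apolipoprotein B.

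Of 16 C/EBP target genes, 0 were called higher and 1 lower, with a median of -0.11. The gene was Orm1, an acute-phase protein, with a log2 fold change of -0.77 (SE 0.20, limma adjusted p = 0.040), and B6 015, the liver with the highest Cebpb, also had the highest Orm1 (7.48). The order did not hold throughout, since B6 010, with the lowest Cebpb, had Orm1 at 6.55, above every NZO liver (5.99 to 6.27). Of 12 FOXA target genes, 1 was called higher and 2 lower, with a median of -0.04. Igfbp1, an insulin-repressed binding protein of IGF, fell by 2.86 (SE 0.37, limma adjusted p = 0.0013), Abcb11, the bile salt export pump, fell by 1.13 (SE 0.11, adjusted p = 0.00033), and the fetal gene Afp rose by 0.73 (SE 0.13, adjusted p = 0.0062).

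Of 10 tested among 11 NR5A2 target genes, 0 were called higher and 2 lower, with a median of -0.26. These were Scarb1, the HDL receptor, at -1.36 (SE 0.19, limma adjusted p = 0.0020), and Abcg5, a subunit of the sterol exporter of the bile, at -0.82 (SE 0.17, adjusted p = 0.015). Their regulator Nr5a2 had log2 fold changes of -0.01 and 0.14. The largest change in the list went the other way, that of Cyp7a1 at 1.51 (SE 0.43, limma adjusted p = 0.051), and was not called. At an unadjusted p of 0.05, passed by 27.8% of all genes, limma called 8 of 19 HNF4A-bound genes, 2 of 16 C/EBP targets, 3 of 12 FOXA targets, 4 of 10 NR5A2 targets, 8 of 19 partners and inhibitors and 3 of 21 other factors. Of the 14 genes called in the 6 lists, 9 were called whichever mouse was left out. The exceptions were Pklr (called in 5 of 8 such fits), Apoa4 (3 of 8), Orm1 (2 of 8), Trib1 (1 of 8) and Apoh (1 of 8), whose adjusted p then reached 0.060, 0.091, 0.089, 0.112 and 0.092 by limma with no change of direction.

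**Figure D4:**
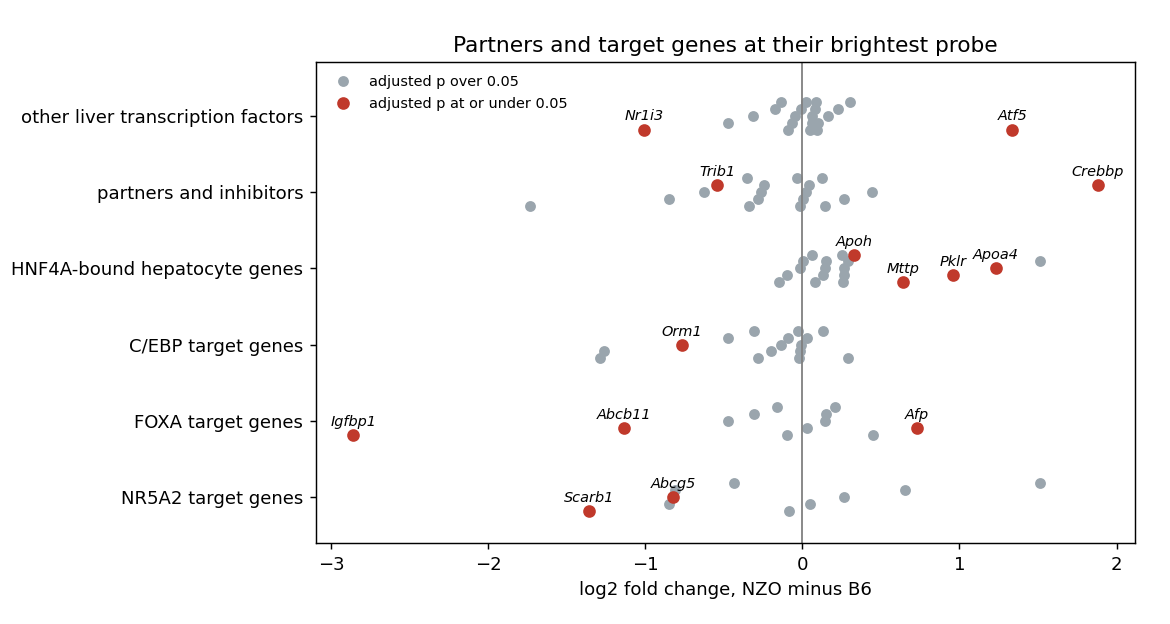
Log2 fold change of NZO against B6 (horizontal axis) for each tested gene of 6 lists (vertical axis), with genes called by limma at an adjusted p of 0.05 in red and named. Between 1 and 4 genes of each list were called, from Igfbp1 at -2.86 to Crebbp at 1.88, whose other probe gave -0.26, and Atf5 at 1.34.

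The label of the tissue was checked against marker genes, with the same background of 7.01% of all genes called higher and 7.21% lower. The brightest marker of each list and, for some lists, the sum of its linear signals are given as signals on the array, since probes differ in how they hybridise and do not rank transcripts. At an unadjusted p of 0.05, in either direction, limma called 6 of 7 tested bile duct markers, 7 of 8 leukocyte, 3 of 7 stellate, 3 of 7 endothelial, 3 of 4 red cell and 1 of 3 adipocyte markers. Of 8 hepatocyte markers 0 were called by limma at an adjusted p of 0.05 and 0 at an unadjusted p of 0.05 (27.8% of all genes), with a median log2 fold change of 0.02, and Alb, the brightest, was at 10.7 to 11.2 in every liver. The summed linear signal of the hepatocyte list was 4898 to 5256 in NZO and 4152 to 4827 in B6, with every NZO liver above every B6 liver. Exocrine pancreas, where Foxa2, Onecut1 and Nr5a2 are also active, had 5 of its 8 markers (Cela3b, Pnlip, Cpa1, Prss2, Ptf1a) above background on none of the arrays, with Ctrb1 the brightest and 0 of 3 tested called (0 at an unadjusted p of 0.05). In bile duct cells, which carry Onecut1 and Foxa2, 1 of 7 tested markers was called higher (Cftr) and 3 lower (Tff3, Spp1, Sox9). Tff3, the brightest, fell by 4.87, and the summed linear signal of the list was 3.79 to 5.94 in NZO and 65.99, 32.7, 86.98 and 42.7 in B6 011, 010, 015 and 009. In B6 most of that sum was Tff3 alone (5.93, 4.84, 6.34 and 5.25 on the log2 scale). Spp1 stood in the same order in these livers (1.65, 1.14, 2.11 and 1.33), while Sox9 was highest in B6 010 (-0.40). The part of the bile duct genes in the levels of the factors was not tested.

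Lymphatic and other endothelial cells, in which Prox1 is active, had 1 of 7 tested markers higher (Stab2, also the brightest) and 1 lower (Lyve1). The lymphatic marker Mmrn1 was above background on 2 of the 8 arrays, while Lyve1, Flt4 and Pdpn of the same list were above it on all 8. Of the leukocyte markers 0 of 8 were called higher and 4 lower (Clec4f, Adgre1, Cd68, Itgax). Lyz2 and Cd3e went the other way, at 0.41 and 0.33, and were not called (limma adjusted p = 0.109 and 0.577). The summed signal of the list was 56.7 to 80.97 in NZO and 84.1 to 129.9 in B6, highest in B6 015, the liver with the highest Cebpb. The brightest leukocyte marker was Csf1r. Of 7 stellate cell markers 0 were higher and 2 lower (Col3a1, the brightest, and Pdgfrb). Their part in the results was not tested.

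Skeletal muscle genes marked single livers. The 4 markers, led by Myh4, summed to 16.4 in NZO 007 and 5.49 in B6 010, against 0.186 to 1.39 in the other 6, and 0 of 2 tested were called by limma (0 at an unadjusted p of 0.05). NZO 007 had the highest Onecut1 and B6 010 the lowest, and the part of muscle RNA in the results was not tested. Adipocyte markers Adipoq, Plin1 and Lep were above background on none of the arrays, and 1 of 3 tested was called (Car3, the brightest, higher). Car3 was at 8.66 to 9.32 over the 8 livers, and the cells it came from were not tested. Cidec and Fabp4, also tested, had log2 fold changes of 0.42 and -0.30 and were not called. Of 4 red cell markers 2 were higher in NZO (Hba-a1, the brightest, and Alas2) and 0 lower, with a summed signal of 293 to 470 in NZO and 155 to 208 in B6.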

How the data were processed

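Liver total RNA was labelled with Cy3 and hybridised to one-colour Agilent mouse arrays, 1 mouse an array. The deposited files are scanner output of Agilent Feature Extraction (version 11.0.1.1 per the file headers, 9.1 in the submitters' processing notes), and their values are fluorescence intensity on a linear scale, background-subtracted by the scanner software in the processed signal. The deposited series table held the same intensity as the scanner's raw spot median on all 59305 spots of every array (within 0.01).

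Processed signals were log2-transformed after division by the 75th percentile of the array, leaving out outlier spots and controls. Spots of 1 probe were averaged, and different probes were kept apart. The 27642 probes that exceeded background in all 4 livers of either strain were fitted with limma 3.58.1 in R 4.3.3, with strain alone in the model and Benjamini-Hochberg adjustment over all probes tested. A probe was called at an adjusted p of 0.05 with any fold. The methods' thresholds were 0.05 for the unadjusted p and 0.7 for the size of the log2 fold change, and in the main fit they were applied to limma's p. The procedure was tested on simulated data, but no outcome of that test is given here and no call rests on it. Scan day and slide were read from the files. Nothing in the labels says how mice were paired or housed, so the 8 livers were taken as independent. The p-values set the difference between the strains against the spread of livers within them, and the number of livers limits the precision.

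Gene names followed accessions in RefSeq (GRCm38.p6), then symbols and synonyms (27656 and 3350 probes by the first and second, 24282 unmatched). Every probe of the 9 genes was named, as were, in each list, the called genes with the largest changes (3 at most, and Apoh, added because 4 were called). Cyp7a1, which was not called, was named for its size. Apoh, Cyp7a1, the growth hormone genes and the relations with Onecut1 were chosen after their values were seen. The members and lists were chosen with earlier results of these data known. Lists were counted at the brightest probe of a gene. Alternatives comprised other background corrections, scalings, filters and batch terms, the methods' t-test and leaving out each mouse.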

Additional observations from a re-analysis of the deposited data

Results flagged for a closer look

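None of the 9 factors had a liver far from the remaining 3 of the same strain by Dixon's criterion. Of 50 groups of 4 livers examined, over the 12 probes and the called genes named in the lists except Apoh, 2 held a liver that did, where about 1 in 20 would by chance. Mttp, which loads lipid onto apolipoprotein B, was at 3.76 in B6 010 against 3.59 to 3.62 in the other B6 livers. Abcg5, of the biliary sterol exporter, was at 5.31 in B6 015 against 4.93 to 4.997 in the other B6 livers. Both are the B6 livers with low Onecut1, and the cause was not tested.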

How the results depend on the processing

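Over 22 alternatives none of the 12 probes was called by limma's adjusted p, the smallest being 0.051 (Cebpa, deposited table as given, whose median over all probes was shifted by -0.15). The unadjusted limma p of Cebpa was 0.053 in the main fit. It was 0.0091 with normexp, 0.013 with quantile normalization, 0.018 with the percentile of detected probes and 0.31 with the array median. In the deposited table as given, 3 probes passed an unadjusted p of 0.05 (Cebpa, Cebpb and Nr5a2 probe 1). The thresholds of the methods were passed by 4 probes (both of Onecut1, Foxa1, Foxa2) with slide as a fixed term, where only the 3 arrays of 1 slide inform the strain, by 2 (Onecut1) with scan day as a term, and by 0 to 1 when 1 mouse was left out (Onecut1 probe 2, without B6 009). Cebpa, Cebpb and Foxa3 kept their direction throughout. Of 261 values, 31 changed sign and the cause was not tested. Hnf4a was -0.041 with normexp, -0.13 with quantile normalization, -0.013 with the percentile of detected probes, and -0.20 and -0.0082 with the deposited table as given and rescaled. As given, that table also had Foxa2 probe 2 at -0.041, Nr5a2 probe 2 at -0.068 and Prox1 at -0.075. Nr5a2 probe 1 was 0.058 with the array median, and 0.024 and 0.18 with slide as a random or fixed term. The fixed term gave 0.97 for Foxa1 and -0.38 for Prox1, and scan day -0.045 for Prox1. With 1 mouse left out, the ranges that crossed 0 were -0.033 to 0.11 for Hnf4a, -0.37 to 0.084 for Foxa1, -0.017 to 0.45 and -0.021 to 0.40 for Foxa2, -0.11 to 0.059 for Nr5a2 probe 1 and -0.054 to 0.24 for Prox1.

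The mouse numbers 009 and 011 occur in both strains but did not pair the mice (correlation of deviations -0.26 and -0.0041). With the replicate block, which rests on those 4 mice, Foxa2 was -0.54 and -0.40, Onecut1 -0.59 and -0.51 and Nr5a2 probe 1 0.022, and 1 probe (Prox1, 0.72) passed the thresholds of the methods.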

Other observations

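Onecut1 is known as a gene that growth hormone raises in liver through STAT5. Socs2 and Cish, which STAT5 induces within a pulse of the hormone and which then damp its signal, and Bcl6, which STAT5 represses, were noticed among the genes whose values resembled or opposed those of Onecut1 in these livers, and Igf1 and Igfals were added to them. As they were chosen after their values were seen, their relations to Onecut1 are described and not tested. Socs2 was at 3.11, 3.03, 2.73 and 2.13 in NZO 007, 003, 009 and 011, and at 2.30, -1.48, -0.64 and 0.85 in B6 011, 010, 015 and 009. The 2 livers with least Onecut1 also had least Socs2, and the strain means lay 2.49 apart on the log2 scale (1.97 to 2.49 at its 3 tested probes), which limma did not call (adjusted p = 0.061). A correlation over all 8 livers takes in any such difference.

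Pearson r with Onecut1 probe 1 over the 8 livers was 0.883 for Socs2, 0.837 for Cish and -0.851 for Bcl6, and Spearman rho was 0.786, 0.881 and -0.524. Without B6 010 and B6 015 r was 0.097, 0.677 and -0.116 over 6 livers, so the values of Socs2 and Bcl6 rest on the 2 livers with low Onecut1 and that of Cish rests on them in part. Within scan day 1 they were 0.958, 0.816 and -0.820 over 5 livers. Within the 4 NZO livers they were 0.742, 0.667 and -0.086, and within the 4 B6 livers 0.910, 0.932 and -0.921.

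Igf1 and Igfals, the circulating growth factor and its carrier, had r = 0.490 and 0.561 with Onecut1 and rho = 0.619 and 0.476 over the 8 livers. Without B6 010 and B6 015 r was -0.087 and -0.173 over 6 livers, and within scan day 1 it was 0.833 and 0.642 over 5 livers. Igf1 was higher in every NZO liver, at 7.61 to 7.84 against 6.72 to 7.08 in B6 (limma log2 fold change 0.83, adjusted p = 0.0018), with 4 of its 5 probes called. Growth hormone was not measured, and its part in the spread of Onecut1 was not tested.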
